A study of Homo sapiens with 6 samples.

Results

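The genes described here are the molecular chaperones and the genes of the unfolded protein response. They were 44 genes of the 18795 genes in the deposited table, taken by their Entrez Gene ID from a list of names. The list held 16 cytosolic and mitochondrial heat shock proteins and co-chaperones, the 8 subunits of the cytosolic chaperonin, and 20 chaperones and stress genes of the endoplasmic reticulum. All 44 of 44 passed the minimum of 1 FPKM on average over the libraries.

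Messenger RNA was sequenced from 2 human cell lines, HCC70 and MDA-MB-468, both models of basal-like breast cancer, a tumour class that lacks hormone receptors. The labels give no treatment or time that separated the groups, and no genotype other than the cell line. Cells of each line were fixed in methanol, stained, and sorted into cells positive for keratin 18 alone (K18+), for keratins 18 and 14 (K18+K14+), or for keratin 18 and vimentin (K18+Vim+). Each population gave 1 library per line, so n = 2 per population and the line is the only replicate. The labels do not say that the libraries came from separate cultures, and p-values measure only the spread between these samples. In sorted populations of this kind, fewer cells with a transcript and less transcript per cell cannot be told apart.

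Chaperones bind unfolded proteins and help them to fold. In the cytosol, HSP70 and HSP90 proteins work with J-domain proteins and other co-chaperones, and heat shock factors bind heat shock elements in their promoters when unfolded protein builds up. The chaperonin is a closed barrel, built from 8 different subunits in each ring, that folds actin and tubulin. In the endoplasmic reticulum, the sensors IRE1 (ERN1), ATF6 and PERK answer unfolded protein by raising chaperones and degradation factors, and the factors ATF6 and XBP1 act through the endoplasmic reticulum stress elements ERSE and ERSE-II.

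These elements were picked because they are known from genes of these groups. Their counts by group are therefore a description and no test. RefSeq promoters (GRCh38.p14, 250 bases before to 50 after the start site) were found for 42 of 44 members, all but CCT6A and PDIA3. All were searched on both strands. ERSE was taken as CCAAT and CCACG with 9 bases between them, ERSE-II as ATTGG and CCACG with 1 base between, and the heat shock element as GAA, TTC and GAA with 2 bases in each gap. No match was shared between ERSE and ERSE-II in a member. ERSE was present in 0.0769% of 35114 promoters, ERSE-II in 0.0541% and the heat shock element in 0.49%. Members were counted by gene, once for a match in any promoter. The 42 members had 58 promoters, so their counts and the shares of all promoters differ in unit. Among the members, ERSE occurred in 6 of 19 reticulum genes, ERSE-II in 3 of 19, and neither in the 16 cytosolic or the 7 chaperonin genes. The heat shock element occurred in 5 of 16 cytosolic genes and in no gene of the other 2 groups. The other 10 reticulum and 11 cytosolic genes held none of them. A match is a description of letters and not a shown binding site. The 250 bases before the start of HSPA5, at chr9:125241344-125241593 on the minus strand, are printed with the ERSE match in capitals.
HSPA5: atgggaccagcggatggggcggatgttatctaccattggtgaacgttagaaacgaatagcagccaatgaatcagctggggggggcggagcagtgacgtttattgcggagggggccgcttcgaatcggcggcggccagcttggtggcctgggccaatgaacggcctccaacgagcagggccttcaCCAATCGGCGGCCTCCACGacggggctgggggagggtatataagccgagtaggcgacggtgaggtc

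The ERSE matches of the other reticulum members are printed with 10 bases on each side, in the direction of the gene. Some lie on the opposite strand and then read CGTGG first.
HSP90B1: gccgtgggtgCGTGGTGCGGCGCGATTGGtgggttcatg
CALR: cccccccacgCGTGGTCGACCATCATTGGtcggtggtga
CANX: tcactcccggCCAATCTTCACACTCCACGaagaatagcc
PDIA6: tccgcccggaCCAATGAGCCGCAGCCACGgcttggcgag
CRELD2: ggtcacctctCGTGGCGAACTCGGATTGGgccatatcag
The ERSE-II matches are printed in the same way.
HERPUD1: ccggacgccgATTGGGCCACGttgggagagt
HYOU1: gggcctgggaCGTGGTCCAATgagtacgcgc
SDF2L1: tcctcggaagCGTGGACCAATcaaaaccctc
The heat shock elements of the cytosolic members follow. Where a gene held more than 1 match, of any element, the one nearest the start site is shown. That of DNAJA1 begins 3 bases after the start site.
HSPA8: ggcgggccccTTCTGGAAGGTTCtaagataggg
HSP90AA1: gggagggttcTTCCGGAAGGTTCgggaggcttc
HSP90AB1: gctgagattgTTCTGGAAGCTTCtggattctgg
HSPD1: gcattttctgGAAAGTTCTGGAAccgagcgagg
DNAJA1: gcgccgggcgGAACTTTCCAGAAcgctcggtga

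The genes of the sort antigens KRT14 and VIM were highest in the populations sorted for them. KRT14 was 48.6 FPKM in HCC70 K18+K14+ against 15.3 in K18+, and 279 against 47.8 in MDA-MB-468. VIM was 54.8 FPKM in HCC70 K18+Vim+ against 13.4 in K18+, and 259 against 12.2 in MDA-MB-468. KRT18, the antigen shared by all populations, was 158, 174 and 216 FPKM in HCC70 and 464, 569 and 67.7 FPKM in MDA-MB-468, lowest in the K18+Vim+ library. That library, with the label MDA-MB-468 K18+Vim+, goes against its line label. Its SMAD4 was 5.19 FPKM and its RB1 6.68, against at most 0.566 and 0.307 in the other MDA-MB-468 libraries, and its EGFR was 10.4 FPKM against 153 and 70.7. The 10 epithelial markers summed to 257 FPKM in it and to 3586 to 5577 FPKM in the other libraries. Of other cell types, 12 immune markers summed to 5.70 to 146 FPKM with CD3D and CD2 at the floor throughout. The 16 fibroblast, endothelial and erythroid markers summed to 6.12 to 14.9 FPKM, with PECAM1 at the floor throughout. Their part in the results was not tested. Total FPKM of the tested genes was 763297 in MDA-MB-468 K18+K14+ and 488308 to 560690 in the other libraries, so levels in that library stand on a larger total. Shares of the total are given below for the groups and for 4 of the members that were highest in it. HSPA8, HSPA4, HSPA1B, DNAJB1 and ERN1 were also highest there in FPKM, but not as a share of all FPKM. HSPA8, for one, had 0.0498% there and 0.0707% in MDA-MB-468 K18+.

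Below, the library that goes against its label stands last among the MDA-MB-468 values, and statements on that line rest on the K18+ and K18+K14+ libraries. Levels are in FPKM, which are scaled to transcript length, and are listed in the order K18+, K18+K14+ and K18+Vim+. The 44 members together made up 0.954%, 0.882% and 0.836% of all FPKM in HCC70, and 1.14%, 0.859% and 1.25% in MDA-MB-468. The reticulum members held the largest share in every library, from 0.377% to 0.603%. The cytosolic members held 0.227% to 0.361% and the chaperonin subunits 0.128% to 0.314%. The median reticulum member stood between 53.8 and 118 FPKM, with a far wider spread among members than in the chaperonin. Calreticulin (CALR), a lectin chaperone of the reticulum, was the highest member in every library but MDA-MB-468 K18+, where CCT6A was higher. The sensor ERN1 was the lowest in every library but MDA-MB-468 K18+K14+, where SEL1L was the lowest and EDEM1, ATF6 and DNAJC3 were also below ERN1.

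**Figure D1:**
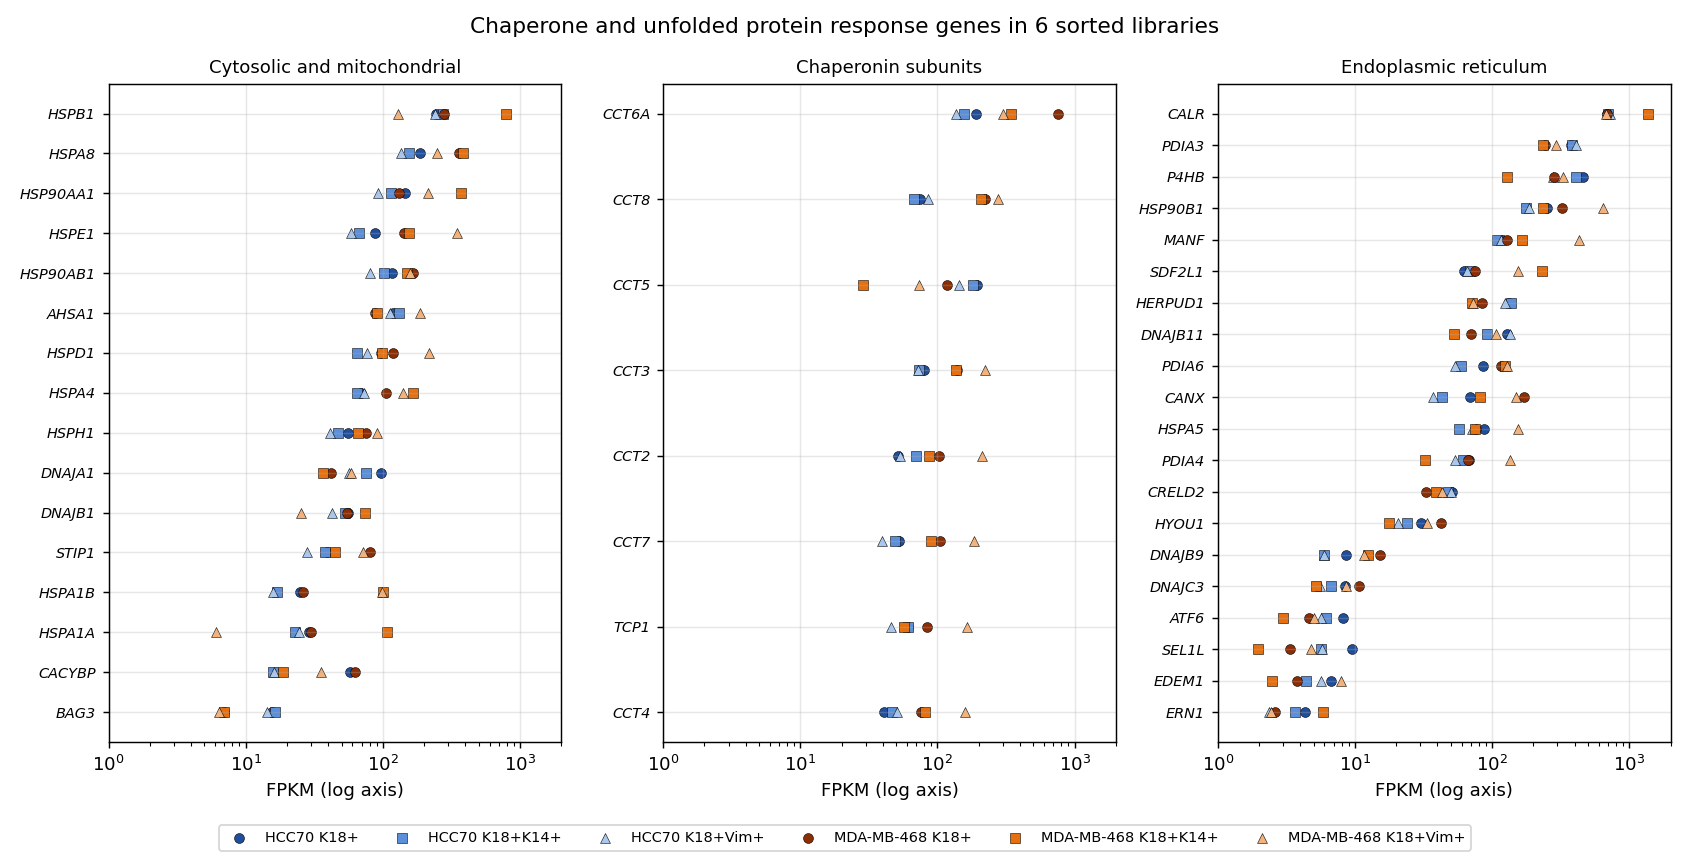
FPKM (log axis) of each member in the 6 libraries, with cytosolic and mitochondrial members, chaperonin subunits and reticulum members in separate panels, ordered by mean level. Circles are K18+, squares K18+K14+ and triangles K18+Vim+ libraries, HCC70 in blue and MDA-MB-468 in brown and orange. CACYBP is near 60 FPKM in both K18+ libraries and between 15.9 and 35.5 FPKM in the other 4.

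Among the cytosolic members, the inducible HSP70 genes HSPA1A and HSPA1B lie next to each other and are nearly identical, so reads cannot be divided between them with certainty. Their sum was 54.0, 39.9 and 40.1 FPKM in HCC70 and 56.4, 207 and 105 FPKM in MDA-MB-468. The sum was thus close in both K18+ libraries, and highest in MDA-MB-468 K18+K14+. The ratio of HSPA1A to HSPA1B was 1.07 to 1.55 in 5 libraries and 0.0615 in the library with the label MDA-MB-468 K18+Vim+. There, HSPA1A stood at 6.08 FPKM and HSPA1B at 98.8 FPKM.

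HSPA8, the constitutive HSP70 of the cytosol, was 187, 156 and 135 FPKM in HCC70 and 362, 381 and 248 FPKM in MDA-MB-468. The K18+ and K18+K14+ libraries of MDA-MB-468 were higher than all HCC70 libraries. HSP90AA1, the inducible HSP90, was 146, 115 and 92.7 FPKM in HCC70 and 131, 371 and 213 FPKM in MDA-MB-468. Its constitutive partner HSP90AB1 was 116, 101 and 81.0 FPKM in HCC70 and 167, 151 and 157 FPKM in MDA-MB-468. The ratio of HSP90AA1 to HSP90AB1 was 1.14 to 1.25 in HCC70, and 0.787, 2.45 and 1.36 in MDA-MB-468. The HSP90 pair thus differed in its balance in MDA-MB-468 K18+K14+, where HSP90AA1 was high and HSP90AB1 was not.

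HSPB1, a small heat shock protein that holds unfolded proteins, was 244, 276 and 241 FPKM in HCC70 and 278, 790 and 129 FPKM in MDA-MB-468. The MDA-MB-468 K18+K14+ library was the highest, also as a share of all FPKM, with 0.103% against 0.0228% to 0.0559% in the others. HSP90AA1 made up 0.0485% of all FPKM there, against 0.0189% to 0.0379% in the others. CRYAB, another small heat shock protein and no member, was 8.66, 24.9 and 6.05 FPKM in HCC70 and 149, 353 and 11.4 FPKM in MDA-MB-468. It was highest in the K18+K14+ library of each line.

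CACYBP, which binds calcyclin and the ubiquitin ligase SIAH1, was 57.7, 15.9 and 16.1 FPKM in HCC70 and 62.5, 18.6 and 35.5 FPKM in MDA-MB-468. Both K18+ libraries were above all 4 other libraries. The mitochondrial chaperonin pair HSPD1 and HSPE1, which share a promoter region, was higher in the library with the label MDA-MB-468 K18+Vim+ than elsewhere. HSPD1 was 218 FPKM there against 64.3 to 119 FPKM in the others, and HSPE1 was 347 FPKM against 59.1 to 154 FPKM. BAG3, an HSP70 co-chaperone of selective autophagy, was 15.7, 16.3 and 14.3 FPKM in HCC70 and 6.91, 6.90 and 6.4 FPKM in MDA-MB-468, without overlap of HCC70 with its K18+ and K18+K14+ libraries.

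The J-domain proteins DNAJA1 and DNAJB1, which hand substrates to HSP70, differed in pattern. DNAJA1 was 97.1, 75.3 and 57.1 FPKM in HCC70 and 42.2, 36.4 and 59.1 FPKM in MDA-MB-468, so that its K18+ and K18+K14+ libraries did not overlap between the lines. DNAJB1 was 55.9, 53.2 and 42.3 FPKM in HCC70 and 55.0, 74.6 and 25.2 FPKM in MDA-MB-468. It was lowest in the library with the K18+Vim+ label of each line, which in MDA-MB-468 goes against its line label. STIP1, which joins HSP70 to HSP90, was 39.4, 37.9 and 27.9 FPKM in HCC70 and 80.3, 44.7 and 71.6 FPKM in MDA-MB-468. The nucleotide exchange factor HSPH1 ranged from 40.9 to 91.4 FPKM and its relative HSPA4 from 64.8 to 165 FPKM. AHSA1 was 87.9 to 130.3 FPKM in 5 libraries and 188 FPKM in the library with the label MDA-MB-468 K18+Vim+.

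The 8 chaperonin subunits enter the ring in equal number. Over all 8, the highest subunit was 3.62 to 4.78 times the lowest in HCC70, and 9.92, 11.9 and 4.04 times in MDA-MB-468. The 6 other than CCT5 and CCT6A lay closer to one another in HCC70. CCT5 and CCT6A were the highest subunits in each HCC70 library, so this closeness follows in part from leaving them out. Without CCT5 and CCT6A, the highest subunit was 1.57 to 2.15 times the lowest in HCC70. In MDA-MB-468 it was 2.94, 3.68 and 1.72 times the lowest, the last in the library that goes against its line label. CCT6A was 193, 157 and 135 FPKM in HCC70 and 756, 344 and 298 FPKM in MDA-MB-468, that is 2.42 to 3.38 times the median of the 6 in HCC70, and 7.31, 3.88 and 1.5 times in MDA-MB-468. CCT6A has related pseudogenes, so its level is uncertain. CCT5 was 194, 182 and 144 FPKM in HCC70 and 118, 28.8 and 73.9 FPKM in MDA-MB-468. It was 2.75 to 3.40 times the median of the 6 in HCC70, and 1.14, 0.325 and 0.372 times in MDA-MB-468. CCT8 was 75.2, 67.7 and 85.6 FPKM in HCC70 and 224, 209 and 274 FPKM in MDA-MB-468, without overlap of HCC70 with its K18+ and K18+K14+ libraries. CCT2 (52.0, 69.95 and 53.8 FPKM against 102, 87.2 and 213), CCT3, CCT4 and CCT7 were also higher in the K18+ and K18+K14+ libraries of MDA-MB-468 than in any of HCC70. TCP1 was not, with 61.4, 61.5 and 45.5 FPKM in HCC70 and 84.3, 56.9 and 165 FPKM in MDA-MB-468.

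**Figure D2:**
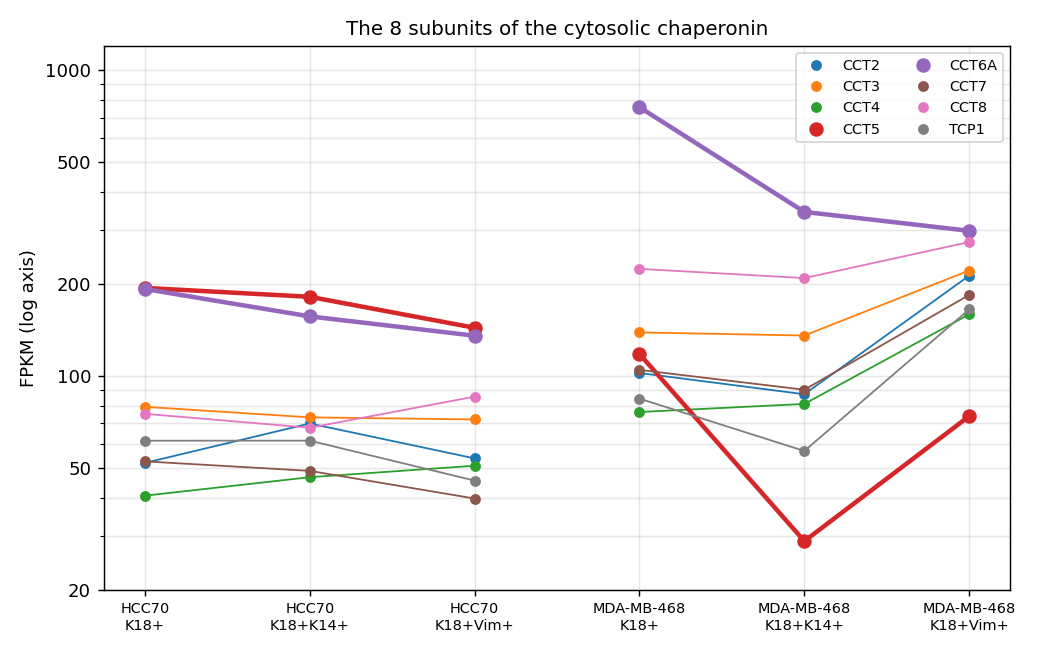
FPKM (log axis) of the 8 chaperonin subunits in each library, 1 point per library, with lines joining libraries of the same cell line. CCT5 stands with CCT6A above the other subunits in HCC70, and is the lowest subunit in MDA-MB-468 K18+K14+ at 28.8 FPKM.

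CCT6A lies on chromosome 7 close to EGFR, and its 13 tested neighbours from SEC61G to NUPR2 were set beside it, a stretch chosen after the CCT6A values were seen. Of these 13, 12 were higher in MDA-MB-468 than in HCC70 over the K18+ and K18+K14+ libraries, 10 were called higher and none lower. Over all genes 11.5% were called higher (limma, adjusted p under 0.05). LANCL2 was 10.1 and 5.61 FPKM in HCC70 and 291 and 179 FPKM in MDA-MB-468 (fitted log2 difference 4.74 ± 0.34, SE). CHCHD2 differed by 2.10 ± 0.48. Between the K18+Vim+ libraries, the second of which goes against its line label, the difference was smaller in size for 12 of the 13 neighbours, all but SEPTIN14 (-0.53 and -0.72). It had the opposite sign for 4 of them, at -1.11 for VOPP1, -0.51 for NUPR2, -0.34 for SUMF2 and -0.09 for EGFR. LANCL2 differed by 1.48 there, CHCHD2 by 0.26 and CCT6A by 1.13.

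**Figure D3:**
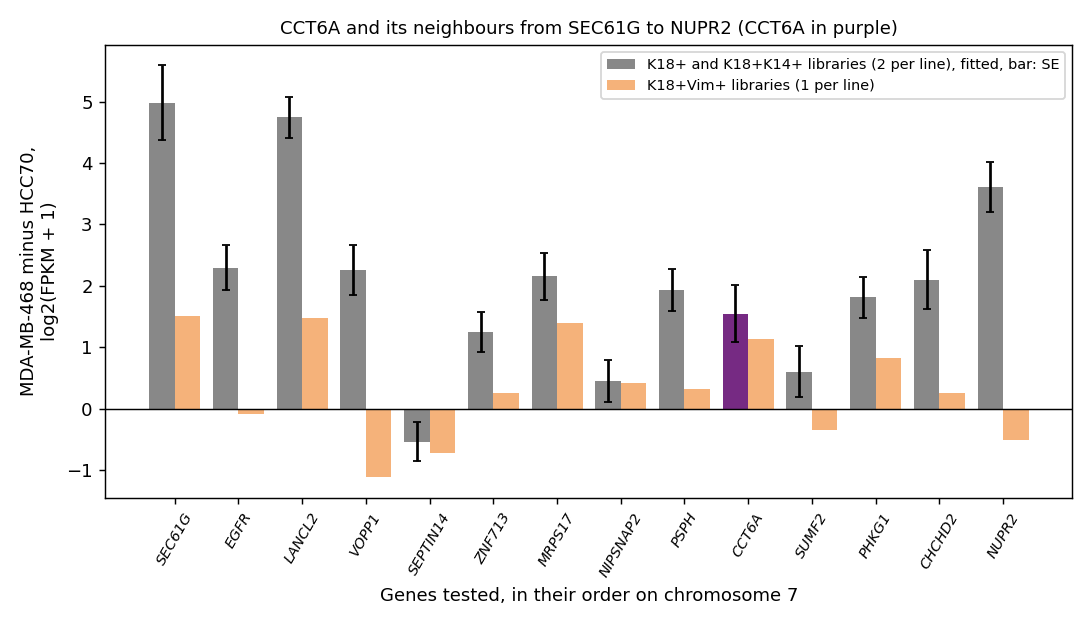
Difference between MDA-MB-468 and HCC70 in log2(FPKM + 1) for the tested genes from SEC61G to NUPR2 in their order on chromosome 7. Grey bars (purple for CCT6A) are fitted over the K18+ and K18+K14+ libraries with their SE, and orange bars are the single K18+Vim+ libraries. CCT6A differed by 1.55 and LANCL2 by 4.74.

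Among the reticulum members, HSPA5 (BiP), the reticulum HSP70, was 88.0, 57.1 and 71.6 FPKM in HCC70 and 76.9, 75.7 and 154 FPKM in MDA-MB-468. HSP90B1 (GRP94), the reticulum HSP90, was 251, 177 and 185 FPKM in HCC70 and 325, 235 and 644 FPKM in MDA-MB-468. The library with the label MDA-MB-468 K18+Vim+ was the highest for both. MANF, a secreted stress-induced protein, was 121, 108 and 116 FPKM in HCC70 and 129, 164 and 433 FPKM in MDA-MB-468. The disulfide isomerase PDIA4 was 68.2, 61.6 and 53.8 FPKM in HCC70 and 67.3, 32.2 and 134 FPKM in MDA-MB-468, with the K18+K14+ library lowest and the library that goes against its line label highest.

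The lectin chaperones calnexin (CANX) and calreticulin differed from each other. CANX was 69.2, 42.9 and 37.3 FPKM in HCC70 and 170, 82.2 and 148 FPKM in MDA-MB-468. CALR was 688, 695 and 727 FPKM in HCC70 and 691, 1367 and 677 FPKM in MDA-MB-468. CALR was high in MDA-MB-468 K18+K14+ and CANX was not. As a share of all FPKM, CALR was 0.179% there and 0.12% to 0.149% in the others, a smaller gap than in FPKM. SDF2L1, a BiP cofactor, was 62.2, 68.8 and 65.3 FPKM in HCC70 and 75.1, 232 and 155 FPKM in MDA-MB-468. Its share was 0.0303% in MDA-MB-468 K18+K14+ and 0.0276% in the library that goes against its line label, against 0.0123% to 0.0147% in the other 4. P4HB, a disulfide isomerase, was 462, 406 and 279.5 FPKM in HCC70 and 282, 129 and 332 FPKM in MDA-MB-468.

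The sensors ERN1 and ATF6 and the degradation gene SEL1L were low. ERN1 was 4.31, 3.64 and 2.35 FPKM in HCC70 and 2.61, 5.88 and 2.43 FPKM in MDA-MB-468. ATF6 was 8.2, 6.2 and 5.64 FPKM in HCC70 and 4.64, 3.0 and 5.01 FPKM in MDA-MB-468. SEL1L, the adaptor of the HRD1 ubiquitin ligase, was 9.58, 5.69 and 5.77 FPKM in HCC70 and 3.35, 1.96 and 4.76 FPKM in MDA-MB-468. The HCC70 libraries of SEL1L were all above the K18+ and K18+K14+ libraries of MDA-MB-468. PDIA3, an isomerase that works with the lectin chaperones, was 374, 383 and 408 FPKM in HCC70 and 245, 234 and 293 FPKM in MDA-MB-468, and was lower in its K18+ and K18+K14+ libraries than in HCC70. HERPUD1, a degradation factor, was 132, 138 and 123 FPKM in HCC70 and 84.0, 71.0 and 72.4 FPKM in MDA-MB-468, lower in its K18+ and K18+K14+ libraries than in HCC70. DNAJB9, a J-domain partner of BiP, was 8.66, 5.96 and 5.96 FPKM in HCC70 and 15.2, 12.4 and 11.7 FPKM in MDA-MB-468, higher in its K18+ and K18+K14+ libraries than in HCC70. HYOU1, a reticulum relative of HSP70, was 30.2, 23.8 and 20.8 FPKM in HCC70 and 42.6, 17.7 and 33.4 FPKM in MDA-MB-468, with overlap. DNAJB11 ranged from 52.9 to 135 FPKM, PDIA6 from 53.8 to 129 FPKM and DNAJC3 from 5.23 to 10.8 FPKM. CRELD2 varied 1.55-fold and EDEM1, a lectin of degradation, 3.16-fold between the highest and the lowest library.

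In K18+K14+ against K18+ no member was called, and no gene among the 12454 tested (0%; limma, adjusted p under 0.05, smallest adjusted p 0.0732). At an unadjusted p under 0.05, 2 of 44 members passed, against 12.8% of all genes. Lower values in K18+K14+ in both lines were seen for 23 of 44 members, against 43.7% of all genes, higher values for 5 of 44, against 20.2%, and opposite signs for 16 of 44, against 36.2%. The 23 were 6 cytosolic, 5 chaperonin and 12 reticulum members. The medians relative to all genes were -0.11 (HCC70) and 0.22 (MDA-MB-468) for cytosolic, 0.05 and -0.05 for chaperonin, and -0.17 in both lines for reticulum members. The differences between those shares and the background were not tested. Over the 12409 tested genes with a known transcript length, the log2 ratio had a Spearman correlation with length of -0.157 (HCC70) and -0.244 (MDA-MB-468), and of -0.191 and -0.022 over the 44 members. These are correlations across genes, which are not independent, and the part of length in the ratios was not tested.

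CACYBP had the largest difference of a size shared by both lines, with log2 ratios of -1.80 and -1.70 and a fitted difference of -1.75 ± 0.33 (SE; limma unadjusted p = 0.000602, adjusted p = 0.389). It was the only member 2-fold lower in both lines, against 0.739% of all genes. CANX followed with -0.68 and -1.04, and SEL1L (-0.66 and -0.56), HSP90B1 (-0.50 and -0.47) and EDEM1 (-0.50 and -0.45) were lower in both. The members higher in both lines were HSPB1 (0.18 and 1.5), SDF2L1 (0.14 and 1.62), CCT4 (0.20 and 0.09), AHSA1, a stimulator of HSP90 (0.12 and 0.03), and CALR (0.01 and 0.98). In each of HSPB1, SDF2L1 and CALR only the MDA-MB-468 ratio was large. HSPA1A had -0.34 in HCC70 and 1.80 in MDA-MB-468, HSPA1B -0.52 and 1.88, and HSP90AA1 -0.33 and 1.49. CCT5 had -0.10 and -2.00, the lowest ratio of the members in MDA-MB-468, and CCT2 had 0.42 in HCC70, the highest there.

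**Figure D4:**
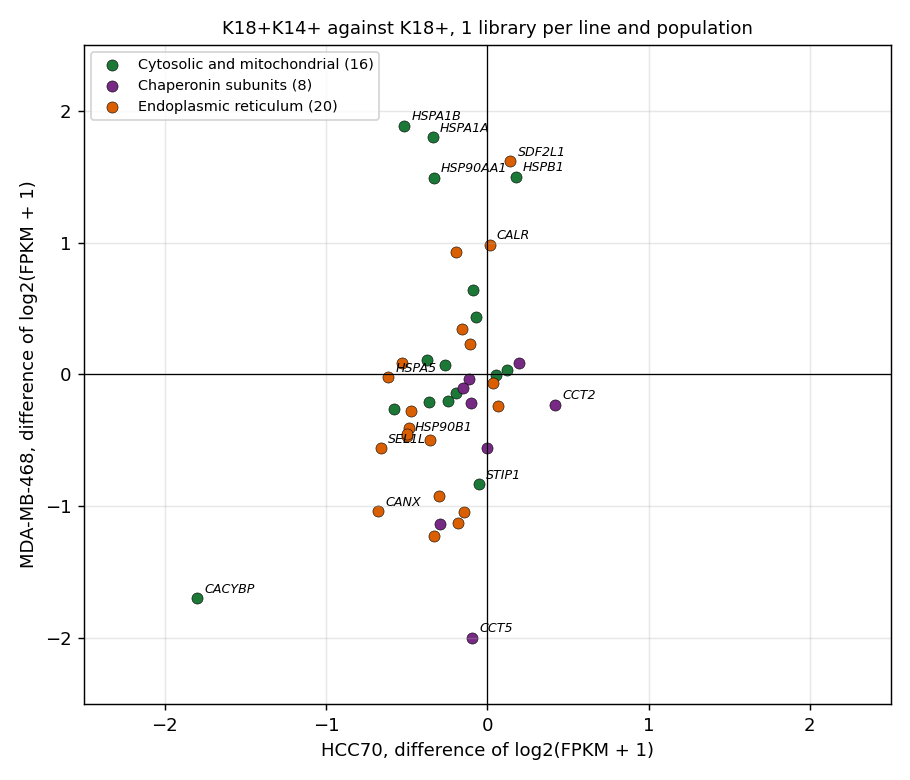
Difference of log2(FPKM + 1) between K18+K14+ and K18+ for each member, HCC70 on the horizontal and MDA-MB-468 on the vertical axis, 1 library per line and population, coloured by group. CACYBP stands alone at the lower left, and HSPA1A, HSPA1B and HSP90AA1 are above 0 in MDA-MB-468 only.

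In K18+Vim+ against K18+ no member and no gene was called (0%; limma, smallest adjusted p 0.863), with 1 of 44 members and 4.27% of genes at an unadjusted p under 0.05. Of the members, 16 of 44 had lower values in both lines (33.9% of all genes), 7 of 44 higher values (16.5%) and 21 of 44 opposite signs (49.6%). In HCC70 alone, 36 of 44 members were lower, against 64.5% of genes, whereas 27 of 44 were higher in the MDA-MB-468 libraries, against 47.8%. The relative medians were -0.30 and 0.13 for cytosolic, -0.10 and 0.78 for chaperonin, and -0.23 and 0.28 for reticulum members, HCC70 first. The MDA-MB-468 side rests on the library that goes against its line label. Without it only HCC70 remains.

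CACYBP was the lowest by the smaller of its ratios, at -1.78 in HCC70 and -0.80 in MDA-MB-468 (fitted -1.29 ± 0.43; limma adjusted p = 0.863). CCT6A (-0.50 and -1.34), HSPA8 (-0.47 and -0.54), CCT5 (-0.43 and -0.67) and DNAJB1, the J-domain partner of HSP70 (-0.39 and -1.10), followed. CCT4 (0.32 and 1.05), CCT8 (0.18 and 0.29) and PDIA3 (0.12 and 0.26) were higher in both lines. HSPA1B had the highest ratio in MDA-MB-468, at 1.87, and HSPA1A the lowest, at -2.13. The sum of the 2 genes was 105 FPKM against 56.4 in K18+ of MDA-MB-468, and 40.1 against 54.0 in HCC70. A sum cannot show how reads were divided between the 2 genes.

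**Figure D5:**
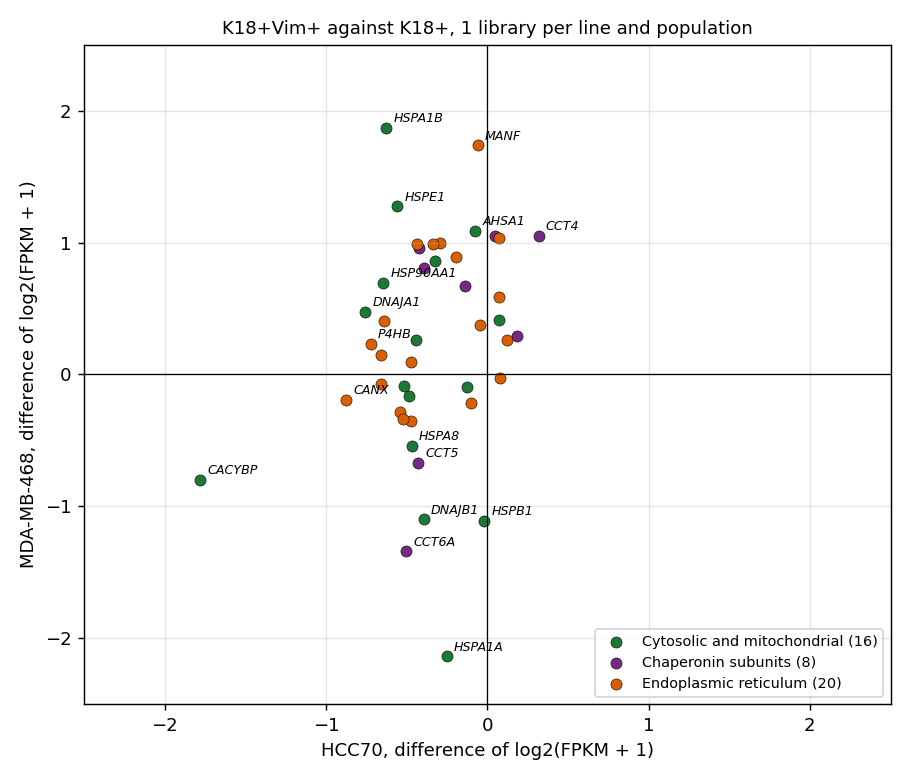
Difference of log2(FPKM + 1) between K18+Vim+ and K18+ for each member, HCC70 horizontal and MDA-MB-468 vertical, 1 library per line and population, coloured by group. Most points lie to the left of 0, with MANF and HSPE1 above 1 in MDA-MB-468 and below 0 in HCC70.

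In K18+Vim+ against K18+K14+ no member and no gene was called (0%; limma, smallest adjusted p 0.547), with 0 of 44 members and 5.46% of genes at an unadjusted p under 0.05. The members with higher values in both lines were 12 of 44 (25.6% of genes), those with lower values 10 of 44 (23.7%) and those with opposite signs 22 of 44 (50.7%). DNAJB11, a J-domain partner of BiP, had 0.56 and 0.99, and HSPA5 had 0.32 and 1.02. ERN1 (-0.47 and -1.0) and DNAJB1 (-0.32 and -1.53) were lower in both. HSPA1A had 0.09 and -3.93, and PDIA4 -0.19 and 2.02. HSPA1B had -0.11 and -0.01, and reads cannot be divided between HSPA1A and HSPA1B with certainty. The sum of the 2 genes was 105 FPKM in MDA-MB-468 K18+Vim+ and 207 FPKM in K18+K14+. Here too the MDA-MB-468 side, and so each count over both lines, rests on the library that goes against its line label. This comparison shares the K18+Vim+ and K18+K14+ libraries with those above, which in turn share the K18+ libraries.

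Between the lines, 6 of 44 members were called, against 26.9% of all genes (limma adjusted p under 0.05; 11.5% higher, 15.4% lower in MDA-MB-468). This fit used the 5 libraries without the one with the label MDA-MB-468 K18+Vim+. Each line had 1 library per population, so no line was replicated within a population. The p-values measure the spread left after the line and population terms, not that between samples of a line. CCT8 was higher in MDA-MB-468 by 1.59 ± 0.39 (SE; adjusted p = 0.0183) and CCT6A by 1.55 ± 0.47 (adjusted p = 0.0392). The members called lower had fitted differences of -1.66 ± 0.50 (CCT5), -1.23 ± 0.33 (SEL1L), -1.11 ± 0.35 (DNAJA1) and -1.11 ± 0.33 (BAG3). The CCT5 difference was -0.71 from the K18+ libraries alone and -2.61 from the K18+K14+ libraries alone. With all 6 libraries only CCT8 was called, and with no filter on low values no member was. The K18+ and K18+K14+ libraries of the lines did not overlap for 33 of 44 members, against 62.6% of all genes: 21 were higher in MDA-MB-468 (30.4% of genes) and 12 lower (32.2%). By group, 10 cytosolic, 6 chaperonin and 5 reticulum members were higher, and 3, 1 and 8 lower. The relative medians were 0.63, 0.89 and 0.05.

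The reticulum members with ERSE or ERSE-II had a median log2 ratio of -0.33 (HCC70) and -0.02 (MDA-MB-468) for K18+K14+ against K18+, and those without had -0.33 and -0.48. For K18+Vim+ against K18+ these medians were -0.29 and 0.15 with an element and -0.47 and 0.32 without, and for K18+Vim+ against K18+K14+ -0.07 and 0.15 with and -0.06 and 0.98 without. For K18+K14+ against K18+, the 5 cytosolic members with a heat shock element had -0.33 and -0.14, and the 11 without had -0.09 and 0.11. For K18+Vim+ against K18+ they had -0.52 and 0.48 with the element and -0.39 and -0.10 without, and for K18+Vim+ against K18+K14+ -0.31 and 0.06 with and -0.18 and -0.01 without. These medians are not relative to all genes. Over all genes tested the medians were -0.15 and -0.17 for K18+K14+ against K18+. They were -0.16 and -0.04 for K18+Vim+ against K18+, and -0.02 and 0.12 for K18+Vim+ against K18+K14+. The MDA-MB-468 value of each K18+Vim+ comparison rests on the library that goes against its line label. Differences between members with and without an element were not tested. HSPA5, whose promoter is printed above, had -0.61 and -0.02 for K18+K14+ against K18+.

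Other genes of these pathways were taken from lists made for each process. In the 3 population comparisons no gene of any list was called. In K18+K14+ against K18+, lower in both lines were 15 of 36 heat shock factors and co-chaperones, 4 of 12 mitochondrial chaperones, 5 of 11 prefoldin and chaperonin partners, 12 of 25 sensors and stress response genes, 17 of 34 reticulum folding enzymes and 16 of 26 degradation genes. Higher in both were 4, 6, 2, 2, 6 and 4. Over all genes tested, 43.7% were lower and 20.2% higher in both lines, and differences from these shares were not tested. TRAP1, the mitochondrial HSP90, had 0.73 and 1.52, and EIF2AK3 (PERK) had -0.89 and -0.84. EDEM3, a mannosidase-like degradation factor, had -1.23 and -1.08. In K18+Vim+ against K18+, PDCD5 had 0.89 and 0.99, and NFE2L2 had -0.63 and -1.68.

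Between the lines the called genes of these lists were 11 of 36, 2 of 12, 5 of 11, 3 of 25, 9 of 34 and 6 of 26, in the same order, against 26.9% of all genes. HSF1, the main heat shock factor, was 99.5, 112 and 112 FPKM in HCC70 and 21.1, 17.5 and 29 FPKM in MDA-MB-468 (log2 difference -2.40 ± 0.36; limma adjusted p = 0.00232). CRYAB was higher in MDA-MB-468 by 3.87 ± 0.34. The oxidase ERO1A was lower there, at -2.70 ± 0.37, and its paralogue ERO1B higher, at 2.14 ± 0.31. FKBP10, a collagen prolyl isomerase, was 75.8, 63.1 and 77.7 FPKM in HCC70 and 2.95, 2.30 and 166 FPKM in MDA-MB-468, the last in the library that goes against its line label. Of the sensors and stress response genes, the 3 of 25 called, against 26.9% of all genes called and 15.4% called lower, were lower in MDA-MB-468, with differences of -1.95 ± 0.33 (SESN2), -1.46 ± 0.34 (VLDLR) and -1.43 ± 0.33 (CHAC1).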

How the data were processed

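The authors deposited 1 FPKM value per gene and library. Reads were aligned with TopHat2 on GRCh37, per the submitters' processing notes, and how fragments were counted is not given in the sources used here. RNA came from methanol-fixed cells, per the labels' protocols. Values have a floor of 0.1 and a ceiling of 10000 FPKM. Read depth is unknown, so no counting interval is given. Of 18807 rows, 7 with a blank were left out and 5 duplicate IDs reduced to the row with the higher mean.

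The 12454 genes averaging 1 FPKM or more were taken as log2(FPKM + 1), a scale that understates differences of low genes. The limma package (3.58.1, R 4.3.3, eBayes with trend) fitted terms for population and cell line. K18+K14+ against K18+ and the lines used 5 libraries (1 residual degree of freedom), without the one with the label MDA-MB-468 K18+Vim+. The K18+Vim+ comparisons used all 6 (2 degrees). Populations were paired by cell line, as the labels give it. Benjamini-Hochberg adjustment ran over all genes, threshold 0.05. Fits were tested on simulated data. Python 3.11.15 with pandas 2.3.3 handled the tables.

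Named were members whose ratios shared a sign, by the largest smaller ratio (up to 5 per direction), called members, the extreme ratio in each line, up to 4 genes per pathway list, and a fixed set with the HSP70 and HSP90 pairs, the chaperonin and the sensors. The neighbours of CCT6A were chosen after values were seen. Members and lists were chosen with earlier results of these data known. Promoters are RefSeq, GRCh38.p14, a build other than the authors', and no coordinates were converted.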

Additional observations from a re-analysis of the deposited data

Results flagged for a closer look

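The lines moved in opposite directions for 16 of 44 members in K18+K14+ against K18+, 21 of 44 in K18+Vim+ against K18+ and 22 of 44 in K18+Vim+ against K18+K14+. Only those with a log2 ratio of at least 0.5 in size in both lines are listed, a minimum chosen for this list, which left 1, 3 and 1. Each line gives 1 library per population, and the difference between the lines was not tested. HSPA1B differed by 2.40 in K18+K14+ against K18+ (log2 ratio in MDA-MB-468 minus that in HCC70) and by 2.5 in K18+Vim+ against K18+. In the latter comparison HSP90AA1 differed by 1.34 and HSPE1 by 1.83. P4HB differed by 1.90 in K18+Vim+ against K18+K14+. All but the first rest on the library with the label MDA-MB-468 K18+Vim+, and the division of reads between HSPA1A and HSPA1B is uncertain.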

How the results depend on the processing

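Of 464 values under alternatives for 32 results, 376 kept direction and side of the threshold or stayed within the spread, 33 were weaker, 9 stronger, 43 moved and 3 reversed; the cause was not tested. Without the replicate block (cell line) no gene and no member was called in any population comparison (0). In K18+K14+ against K18+, 1 gene was called with a minimum of 5 FPKM and 1 with length correction, and no member. Leaving out 1 library gave 0 to 1 genes there. It gave 0 to 1500 genes and 0 to 1 members in K18+Vim+ against K18+, and 0 to 1988 genes and 0 to 2 members in K18+Vim+ against K18+K14+. The highest counts came without HCC70 K18+Vim+, where HSPA1A (both) and PDIA4 (the second) were called; the K18+Vim+ arm is then the 1 library that goes against its line label, assumed to vary like the other groups. Between the lines, leaving out 1 library gave 206 to 3366 genes and 0 to 6 members, with 206, 288, 241 and 326 genes and no member in fits started from all 6 libraries and leaving out a K18+ or K18+K14+ library, an alternative added after seeing the data; fits of 5 libraries lose their residual degree of freedom then and gave values only. The main fit called 3344 of 12454 genes and 6 of 44 members. All 6 libraries gave 1522 genes and 1 member, and no filter 0 and 0. Pseudocount 5 gave 2936 of 12454 genes and 3 of 44 members (CCT8, BAG3, SEL1L). Quantile normalization gave 3605 of 12454 genes and 11 of 44 members, without BAG3. With line only, 3196 of 12454 genes and 7 of 44 members were called. CCT5, DNAJA1 and SEL1L were then not called and CCT3, CCT7, HSPA8 and HSPE1 were. With pseudocount 0.1, 2962 of 12454 genes and 4 of 44 members were called, without CCT5 and DNAJA1.

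Medians of fitted differences relative to all genes moved as follows. For K18+K14+ against K18+, the cytosolic median (0.13) was -0.17 with quantile normalization and -0.11 to 0.22 with 1 library left out. The chaperonin median (0.02) was -0.13 with no filter, -0.31 with quantile normalization, -0.052 with length correction, -0.14 not centred and -0.051 to 0.047 with 1 library left out. The reticulum median (-0.24) was -0.23 and -0.17 with pseudocounts 0.1 and 5, -0.39 with no filter, -0.28 with a minimum of 5 FPKM, -0.31 with quantile normalization, -0.11 with length correction, -0.40 not centred and -0.24 to -0.17 with 1 library left out. For K18+Vim+ against K18+, the cytosolic median (-0.01) was -0.31 to 0.17 with 1 library left out. The chaperonin median (0.37) was -0.095 to 0.79 and the reticulum median (0.07) -0.23 to 0.33 with 1 library left out. Both were lowest without the library with the label MDA-MB-468 K18+Vim+. They changed sign, but were counted as within the spread between the lines. For K18+Vim+ against K18+K14+, the cytosolic median (-0.11) was -0.047 with no filter and not centred, 0.14 with quantile normalization and -0.28 to 0.14 with 1 library left out. In the same comparison the chaperonin median (0.34) was -0.055 to 0.76 and the reticulum median (0.22) -0.019 to 0.53 with 1 library left out. These sign changes were also counted as within the spread. There CACYBP (0.46) was -0.0065 without the library with the label MDA-MB-468 K18+Vim+, and CANX (0.32) was -0.11 without it, -0.027 without MDA-MB-468 K18+K14+ and up to 0.75 without HCC70 K18+Vim+. Between the lines, the cytosolic median (0.63) was 0.17 to 0.67 with 1 library left out. The chaperonin median (0.89) was 0.83 with line only, 1.09 with all 6 libraries, 0.82 with pseudocount 5, 0.84 with no filter and not centred, 0.93 with a minimum of 5 FPKM, 0.77 with quantile normalization and 0.89 to 0.95 with 1 library left out. The reticulum median (0.05) was 0.15 with all 6 libraries, -0.079 with quantile normalization and -0.23 to 0.047 with 1 library left out.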
